A study of Mus musculus with 6 samples.

Results

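The genes of the protein tyrosine phosphatases (Ptpr and Ptpn) and the dual-specificity phosphatases (Dusp) were taken by symbol from the deposited count table: every gene named Ptpn or Dusp with a number, or Ptpr with a letter and any number. The pattern found 62 of 23366 genes, of which 21 are Ptpr, 17 Ptpn and 24 Dusp genes. The RNA came from regulatory T (Treg) cells, sorted as CD4+GFP+ from Foxp3GFP knock-in mice aged 12 days, in 3 libraries of liver and 3 of spleen cells. All 6 libraries carry the knock-in, whose green fluorescence reports Foxp3, the master regulator gene of the Treg lineage, and the labels name no treatment of either group. The labels name neither the construct nor the animals behind a library, so the p-values rest on the spread of these libraries alone, which may be technical.

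Receptor-type phosphatases (Ptpr) span the membrane, non-receptor phosphatases (Ptpn) act in the cytoplasm, and both remove phosphate from tyrosine. In T cells the receptor type CD45 (Ptprc) primes the kinase Lck, while SHP-1 (Ptpn6), Ptpn22 and others restrain signals from the T cell receptor, cytokine receptors and costimulation. The dual-specificity enzymes also act on serine and threonine. Those called MAP kinase phosphatases (MKPs) switch off ERK, JNK and p38, and several MKP genes are themselves induced by ERK signalling, which makes them part of a negative feedback.

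Counts in genes were between 8437055 and 10951720 in the liver libraries. Spleen 2 and spleen 3 held 11408960 and 11358446, and spleen 1 held 1199410, so a floor of 3 counts was 2.58 CPM (counts scaled to a common library size with TMM factors) in spleen 1 and at most 0.361 CPM elsewhere. Floors and intervals cover counting error only. All 8 Treg and T cell markers read were present in every library, with 2 higher in liver, 1 higher in spleen and 5 not passing. Foxp3 lay between 1199 and 1304 CPM in liver and between 1103 and 1218 CPM in spleen, and neither Cd4 nor Cd3e differed past the test (edgeR adjusted p = 0.871 and 0.849). Ctla4 (log2 fold change, liver minus spleen, 0.89 ± 0.12) and Ikzf2 (0.35 ± 0.10) were the markers higher in liver, and Il2ra (-0.60 ± 0.09) the marker higher in spleen.

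The promoters of 4 MKP genes are shown first, because these genes went in opposite directions between the tissues although all belong to the group induced by growth and antigen receptor signals. Each is the 250 bases before the RefSeq transcription start in GRCm38.p6, read 5′ to 3′ along the gene. Capitals mark matches on either strand to a cyclic AMP response element (TGACGTCA), an EGR motif (GCGNGGGCG), the CArG box of serum response factor, or a GC box (GGGCGG).
Dusp1 promoter, chr17:26508473-26508722, minus strand: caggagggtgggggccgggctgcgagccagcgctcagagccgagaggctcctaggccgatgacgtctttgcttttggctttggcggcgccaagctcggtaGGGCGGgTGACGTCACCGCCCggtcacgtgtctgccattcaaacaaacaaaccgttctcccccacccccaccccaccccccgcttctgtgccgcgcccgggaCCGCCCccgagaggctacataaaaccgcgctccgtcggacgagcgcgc
Dusp5 promoter, chr19:53528895-53529144, plus strand: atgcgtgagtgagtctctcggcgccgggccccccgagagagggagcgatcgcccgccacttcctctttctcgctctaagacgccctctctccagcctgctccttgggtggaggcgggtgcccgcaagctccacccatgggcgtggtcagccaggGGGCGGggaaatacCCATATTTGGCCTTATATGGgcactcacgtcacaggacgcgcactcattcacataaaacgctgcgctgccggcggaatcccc
Dusp2 promoter, chr2:127335909-127336158, plus strand: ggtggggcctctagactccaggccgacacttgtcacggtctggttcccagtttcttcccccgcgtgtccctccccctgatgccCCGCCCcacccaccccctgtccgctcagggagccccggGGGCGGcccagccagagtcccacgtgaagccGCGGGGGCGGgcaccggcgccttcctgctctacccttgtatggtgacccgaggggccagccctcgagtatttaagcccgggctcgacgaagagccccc
Dusp6 promoter, chr10:99262981-99263230, plus strand: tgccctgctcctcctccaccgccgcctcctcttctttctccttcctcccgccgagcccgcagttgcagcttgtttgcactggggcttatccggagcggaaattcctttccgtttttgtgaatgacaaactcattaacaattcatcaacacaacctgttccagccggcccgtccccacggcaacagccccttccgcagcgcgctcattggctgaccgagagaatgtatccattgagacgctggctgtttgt
The EGR match of Dusp2 overlaps a GC box. The window of Dusp5 held 2 adjacent CArG boxes, that of Dusp1 held 1 cyclic AMP response element flanked by GC boxes, and that of Dusp2 held 1 EGR match. None of the 6 motifs searched matched the Dusp6 window. Over 32851 such windows of all genes, 1.47% held a CArG box, 1.55% the cyclic AMP response element, 4.70% the EGR motif and 32.7% the GC box. The other motifs searched were AP-1 (TGANTCA), in 6.75%, and the TATA box (TATAAA), in 12.4%. The 50 members with a window had 67 windows, of which 3 held a CArG box (1 of Dusp5 and 2 of Ptprr) and 4 the cyclic AMP response element (Dusp1, Dusp8, Ptpn11 and Ptpru). The 2 Ptprr windows overlap and hold the same CArG site. The EGR motif was in 13 member windows, or 19.4%, and the GC box in 36, or 53.7%. Over the windows of tested genes alone, the shares were 8.71% for the EGR motif, 57.6% for the GC box, 2.63% for the cyclic AMP response element and 1.12% for the CArG box. These matches describe letters in a window and not bound sites.

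Of the 62 members, 42 passed the low-count filter, 10 had some counts but were filtered, and 10 had no count in any library. The filter keeps a gene that is high in only 1 tissue, so the tested members are not all members. Dusp9 and Dusp18, both among the genes called toward liver below, passed it through their liver libraries. By edgeR's quasi-likelihood test with Benjamini-Hochberg adjustment over all 11716 tested genes, 5 members were called toward liver and 7 toward spleen. This is 28.6% of the tested members, against 16.2% of all genes tested. By direction, 9.28% of all tested genes were called toward liver and 6.90% toward spleen. The median log2 fold change (liver minus spleen) was -0.10 over the tested members and -0.0051 over all tested genes. For 15 tested members, or 35.7%, all libraries of 1 tissue lay above all of the other, against 32.9% of all tested genes. The 30 tested members that did not pass had log2 fold changes from -1.14 (Ptprn) to 0.96 (Dusp23), and the smallest edgeR adjusted p among them was 0.0639 (Ptpra). In sorted bulk cells, fewer cells of a type and less RNA per cell cannot be told apart.

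**Figure D1:**
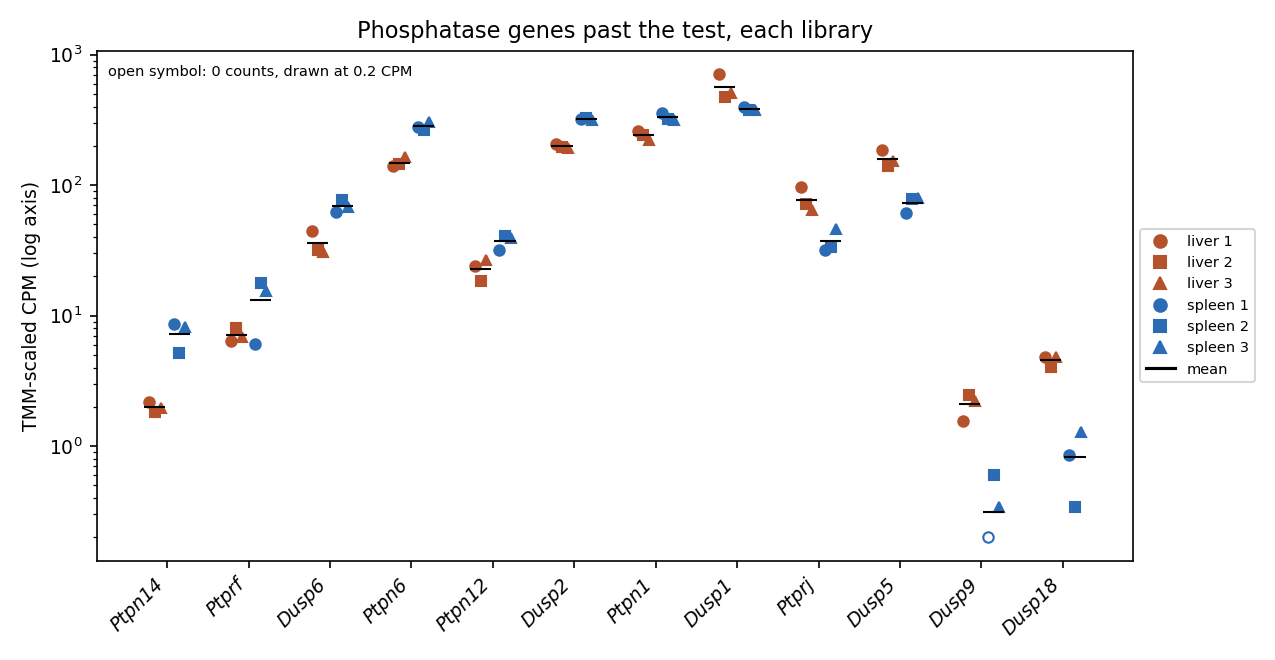
TMM-scaled CPM (log axis) of the 12 members past the test in each of 3 liver and 3 spleen libraries, ordered by fold change, with a bar at the mean and an open symbol for 0 counts. Ptpn14 to Ptpn1 are the 7 genes higher in spleen and Dusp1 to Dusp18 the 5 higher in liver, and only Ptprf has overlapping libraries.

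Levels between genes are compared as CPM per kilobase of exon (kb), averaged over the 6 libraries. Ptprc stood first at 412 CPM per kb, followed by Dusp1 at 199 and Dusp2 at 161 CPM per kb. The most abundant Ptpn genes were Ptpn6 at 83.0, Ptpn7 at 81.7 and Ptpn18 at 76.2 CPM per kb, close to each other. Dusp4, at 65.2 CPM per kb, was the third of the Dusp genes. Behind Ptprc the Ptpr genes were far lower, with Ptprs at 29.5 and Ptpra at 16.8 CPM per kb. Summed over all 62 genes, the level was between 5373 and 5883 CPM in liver and between 5713 and 5970 CPM in spleen, so the tissues overlapped in total and differed in which genes made it up.

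**Figure D2:**
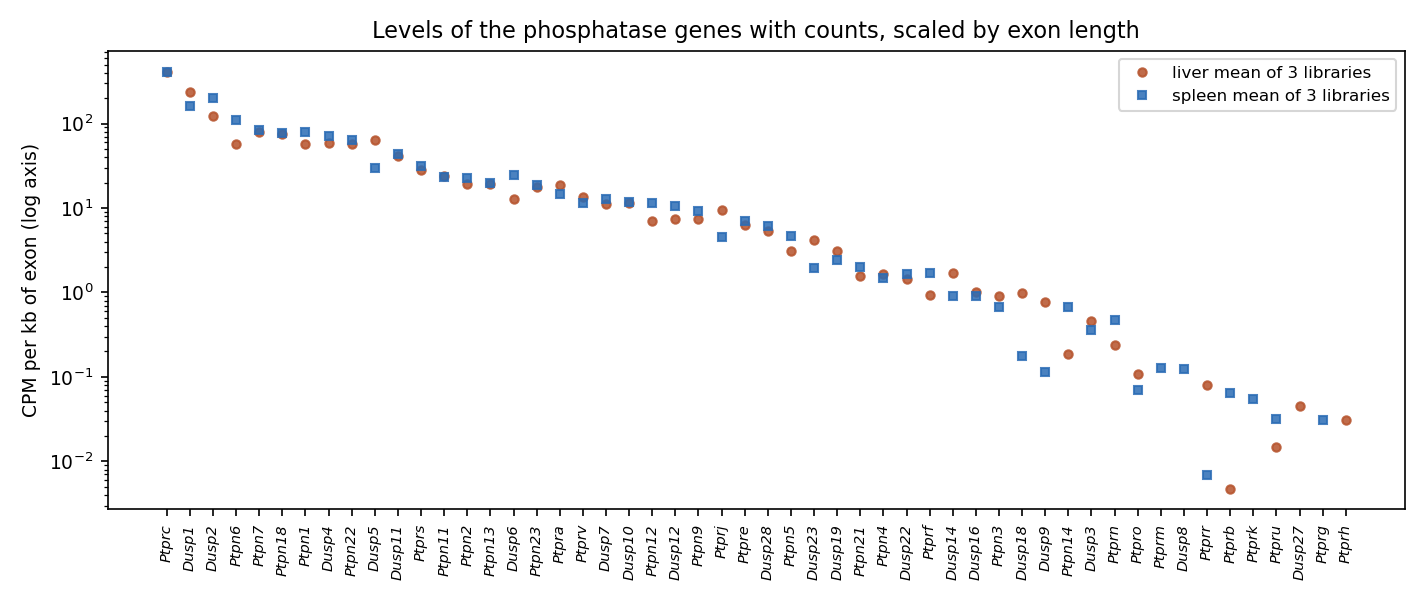
Mean level per kb of exon (log axis) in liver (circles) and spleen (squares) for the 52 members with counts, in order of their mean over both tissues; a tissue mean of 0 is not drawn. Ptprc leads in both tissues at about the same level, while Dusp2, Ptpn6, Dusp5, Dusp6 and Ptprj show separated symbols.

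Among receptor-type phosphatases, Ptprc was at 2177, 2151 and 2002 CPM in liver and at 2249, 2054 and 2023 CPM in spleen. The libraries overlapped, and the log2 fold change was 0.0018 ± 0.088 (SE, edgeR adjusted p = 0.993). Ptprj, which encodes CD148, a receptor phosphatase of leukocytes that acts on Src family kinases, was at 96.0, 71.9 and 64.0 CPM in liver. In spleen it was at 31.8, 33.8 and 46.0 CPM. Every liver library lay above every spleen library, the log2 fold change was 1.001 ± 0.17, and the edgeR adjusted p was 0.000404. Per Ptprc count, Ptprj counts were between 0.0320 and 0.0441 in liver and between 0.0142 and 0.0227 in spleen.

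Ptprf, the receptor phosphatase LAR of cell adhesion, was at 6.37, 8.07 and 6.85 CPM in liver and at 6.02, 17.8 and 15.6 CPM in spleen. It was called higher in spleen with a log2 fold change of -1.05 ± 0.28 (edgeR adjusted p = 0.0148). Spleen 2 and spleen 3 were high, while spleen 1, with 7 counts, lay below every liver library. The call was lost without liver 1, spleen 2 or spleen 3 (edgeR adjusted p = 0.0583, 0.158 and 0.0623) and with all libraries thinned to the depth of the shallowest (-0.70, edgeR adjusted p = 0.352), called equal depth from here on. Ptpra, a receptor phosphatase that also activates Src family kinases, was at 102, 106 and 99.7 CPM in liver and 67.1, 86.0 and 87.0 CPM in spleen. Its libraries did not overlap but it did not pass (0.32 ± 0.11, edgeR adjusted p = 0.0639). Ptprs, Ptpre and Ptprv overlapped between tissues. Ptprv, which the GENCODE annotation lists as a processed transcript rather than a protein-coding gene, was between 60.2 and 90.9 CPM over all libraries.

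The non-receptor genes past the test were all higher in spleen, 4 of 16 tested, and 0 were higher in liver. This is 25.0%, against 16.2% of all tested genes called, 6.90% toward spleen and 9.28% toward liver. At an unadjusted p under 0.05 there were 5 of 16, the fifth being Ptpn9, a share close to the 28.3% of all tested genes. All 5 were toward spleen, while of all tested genes 13.2% were toward spleen and 15.2% toward liver. The DESeq2 Wald test also called 4 toward spleen and 0 toward liver. With limma-voom, Ptpn4 was called toward liver (limma-voom adjusted p = 0.0412). The calls of Ptpn12 and Ptpn14 were lost in some other settings, as given below. Ptpn6 encodes SHP-1, which inhibitory receptors recruit through its SH2 domains. It was at 139, 145 and 163 CPM in liver and at 280, 265 and 306 CPM in spleen, with every spleen library above every liver library. The log2 fold change was -0.93 ± 0.10 (edgeR adjusted p = 3.11e-06), the smallest p among the phosphatases. Ptpn11, its close relative SHP-2, which promotes signalling to ERK, was at 141, 133 and 132 CPM in liver and 126, 130 and 133 CPM in spleen and did not pass (0.06 ± 0.09, edgeR adjusted p = 0.729). There were thus between 0.986 and 1.24 Ptpn6 counts per Ptpn11 count in liver and between 2.04 and 2.30 in spleen, a ratio that no scaling of the libraries changes.

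Ptpn1, which encodes PTP1B, a phosphatase of receptor and JAK kinases, was at 258, 241 and 223 CPM in liver and at 354, 319 and 318 CPM in spleen. The groups did not overlap (-0.45 ± 0.09, edgeR adjusted p = 0.00269). Its nearest relative Ptpn2, a phosphatase of JAK and STAT proteins, was at 52.2, 59.4 and 64.6 CPM in liver and 90.4, 57.4 and 57.9 CPM in spleen. Only spleen 1 stood above the liver range, and Ptpn2 did not pass (edgeR adjusted p = 0.641).

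Of the PEST family, Ptpn12, a cytoskeletal and adhesion phosphatase, was at 23.8, 18.5 and 26.5 CPM in liver and 31.8, 40.5 and 39.7 CPM in spleen (-0.75 ± 0.17, edgeR adjusted p = 0.00573). The groups did not overlap, but the call was lost without liver 2 or spleen 2 (edgeR adjusted p = 0.0501 and 0.0530) and at equal depth (edgeR adjusted p = 0.0743). Ptpn22, which acts on Lck and Zap70, was between 156 and 162 CPM in liver, with spleen between 144 and 216 CPM (edgeR adjusted p = 0.696), and Ptpn18 did not pass either (edgeR adjusted p = 0.959).

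Ptpn14, a FERM domain phosphatase best known in epithelial cells, was low, at 2.16, 1.83 and 1.94 CPM in liver and 8.61, 5.14 and 8.12 CPM in spleen. It had the most negative log2 fold change of the tested members (-1.82 ± 0.40, edgeR adjusted p = 0.00390), and the call was lost without spleen 3 (edgeR adjusted p = 0.0508). The MAP kinase-binding phosphatase gene Ptpn7 was between 249 and 283 CPM in liver, with spleen between 268 and 314 CPM (edgeR adjusted p = 0.507).

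**Figure D3:**
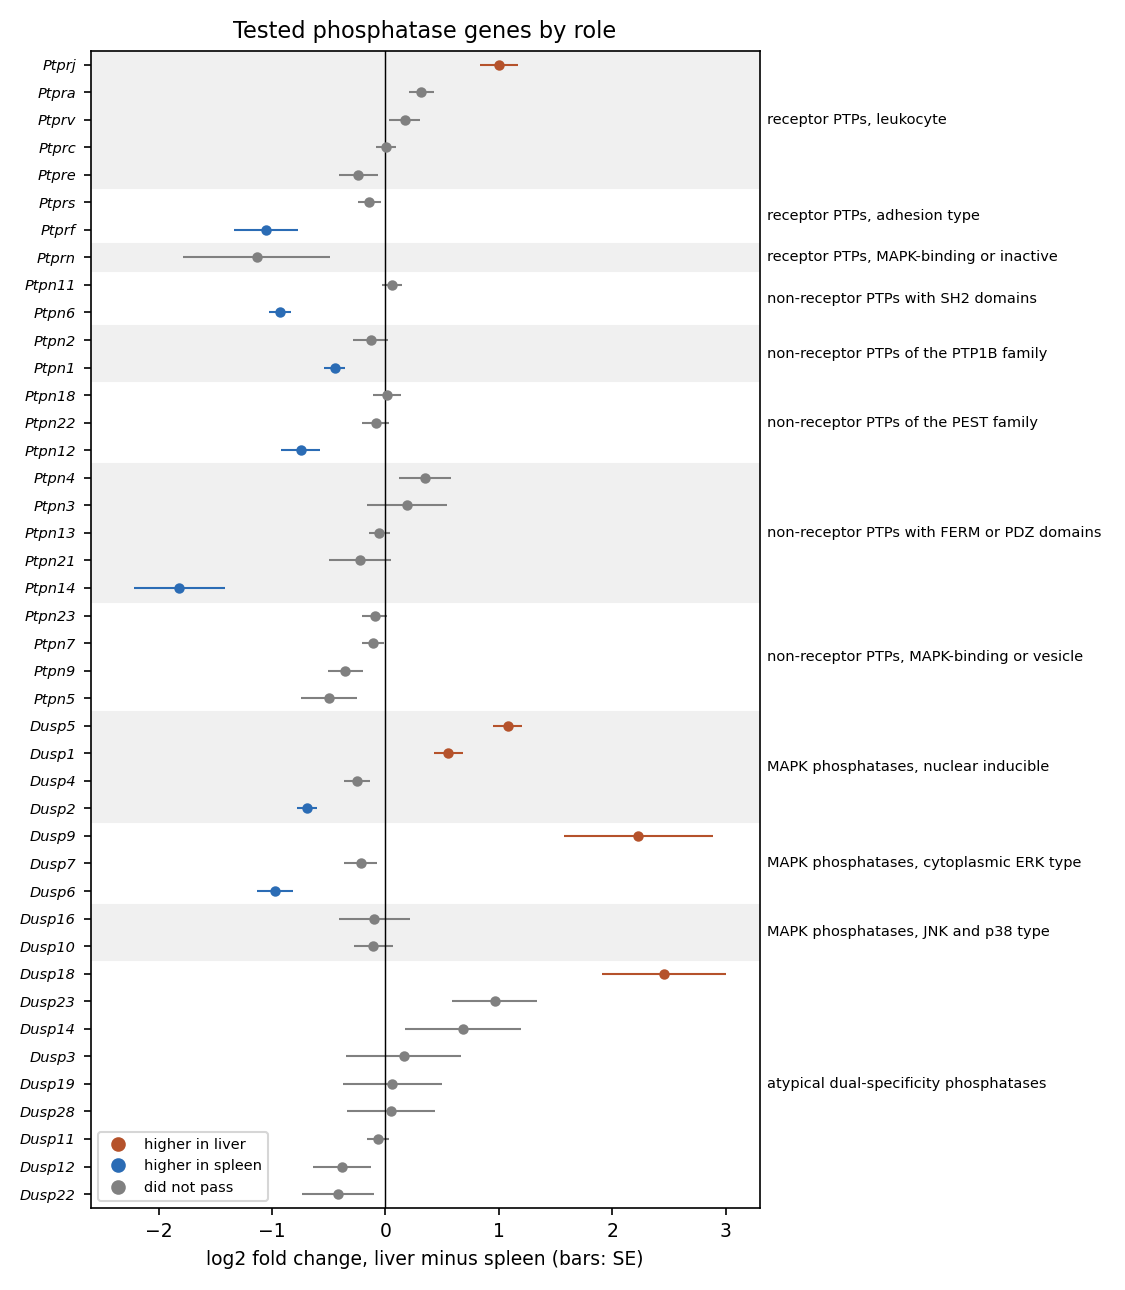
Log2 fold change (liver minus spleen) with SE for the 42 tested members, grouped by role (PTP, protein tyrosine phosphatase); orange marks genes higher in liver, blue genes higher in spleen and grey genes that did not pass. Each of the 4 non-receptor genes past the test lies on the spleen side, while the MAP kinase phosphatases fall on both sides.

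The MKP genes differed in both directions within the same functional group. Of the 4 inducible nuclear MKPs, Dusp5 and Dusp1 were higher in liver, Dusp2 was higher in spleen and Dusp4 did not pass. The share called was 75.0% of these 4 genes, and 66.7% of the 3 cytoplasmic MKPs that act on ERK. It was 0% of the 2 tested genes of the JNK and p38 type. Over all tested genes 16.2% were called, 9.28% toward liver and 6.90% toward spleen. Dusp5, a nuclear phosphatase specific for ERK, was at 187, 139 and 152 CPM in liver and at 61.1, 78.2 and 80.0 CPM in spleen. Every liver library lay well above every spleen library (1.08 ± 0.12, edgeR adjusted p = 8.30e-06). Dusp2, known as PAC-1 and abundant in activated lymphocytes, was at 208, 197 and 192 CPM in liver and at 320, 328 and 318 CPM in spleen. Its libraries were tightly grouped and did not overlap (-0.70 ± 0.09, edgeR adjusted p = 2.20e-05).

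The ratio of Dusp5 to Dusp2 counts, which does not depend on library scaling, was 0.900, 0.707 and 0.793 in liver and 0.191, 0.238 and 0.252 in spleen. The shallow library spleen 1 thus lay with the other spleen libraries. Dusp4, a nuclear phosphatase of ERK and JNK, was at 178, 162 and 143 CPM in liver and at 231, 184 and 173 CPM in spleen, and the groups overlapped (-0.25 ± 0.11, edgeR adjusted p = 0.154).

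Dusp1, the stress-inducible MKP-1 that prefers p38 and JNK, was at 711, 474 and 503 CPM in liver, with spleen at 393, 379 and 378 CPM (0.55 ± 0.13, edgeR adjusted p = 0.00527). The groups did not overlap, but liver 1 stood above the other liver libraries, and without it the log2 fold change was 0.35 (edgeR adjusted p = 0.0440). Some other immediate early genes were also highest in liver 1. Fos was at 852 CPM there against 572 and 593 CPM in liver 2 and liver 3, and Junb at 2076 against 1619 and 1816 CPM. Others were not: Nr4a3 (11.9 CPM) and Nab2 (93.1 CPM) were lowest in liver 1. Egr1 was highest in liver 1 of the liver libraries (122, 100 and 89.5 CPM) but lay below every spleen library there (224 to 261 CPM). Among called members, Dusp5, Dusp6 and Ptprj were also highest in liver 1 of the liver libraries, while Ptpn6 was lowest. These 4 members kept their calls without liver 1. The summed level of the 24 genes in the immediate early list was 7896 CPM in liver 1 and 5785 to 6127 CPM over the remaining 5. The part of these in the Dusp1 result was not tested.

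Of the cytoplasmic MKPs that act on ERK, Dusp6 was at 44.9, 31.8 and 30.6 CPM in liver and at 62.0, 76.3 and 67.9 CPM in spleen. The groups did not overlap, and Dusp6 was higher in spleen (-0.97 ± 0.16, edgeR adjusted p = 0.000251). There were between 4.18 and 4.98 Dusp5 counts per Dusp6 count in liver and between 0.986 and 1.18 in spleen. Dusp7 lay lower in every liver library than in any spleen library but did not pass (-0.22 ± 0.14, edgeR adjusted p = 0.349).

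Dusp9, the third of this group, was near the detection floor, at 1.56, 2.48 and 2.22 CPM in liver and at 0, 0.600 and 0.342 CPM in spleen. These were 13, 27 and 24 counts in liver and 0, 7 and 4 in spleen, and the 0 of spleen 1 allows up to 2.58 CPM. Its higher level in liver (2.23 ± 0.66, edgeR adjusted p = 0.0265) was lost without liver 2, liver 3, spleen 2 or spleen 3 (edgeR adjusted p between 0.0803 and 0.164) and in the DESeq2 Wald test (adjusted p = 0.0762). Of the JNK and p38 type, Dusp10 lay between 24.1 and 37.8 CPM over all libraries and Dusp16 between 2.58 and 9.08 CPM, and neither passed (edgeR adjusted p = 0.738 and 0.880).

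As a share of all counts in the 10 MKP genes, Dusp5 made up between 12.9% and 13.8% in the liver libraries and between 5.39% and 7.25% in the spleen libraries. The lowest liver share had a 95% exact binomial interval of 12.3% to 13.5%, and the highest spleen share one of 6.81% to 7.71%. Dusp2 made up between 14.9% and 18.2% in liver and between 28.2% and 28.8% in spleen. Its highest liver share had an interval of 17.5% to 18.9%, and its lowest spleen share one of 25.8% to 30.8%. Dusp6 had 2.77% to 3.20% in liver and 5.47% to 6.70% in spleen. Dusp1 was the largest contributor in every library, with 43.8% to 50.7% in liver and 33.2% to 34.7% in spleen. The shares depend on each other, so a higher Dusp1 lowers the rest. In liver 1, where Dusp1 had 50.7%, Dusp2 had its lowest share (14.9%) but its highest liver level (208 CPM).

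**Figure D4:**
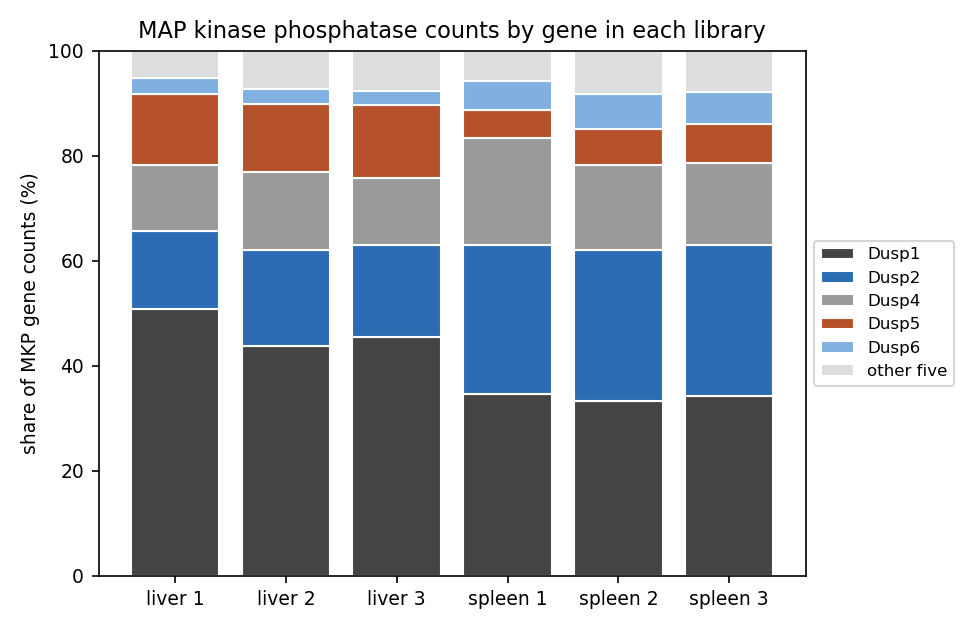
Share of the counts in 10 MKP genes (percent, stacked to 100) taken by 5 genes, and by the other 5 together, in each library. The Dusp5 band spans 12.9% to 13.8% in the liver libraries and at most 7.25% in spleen, and the Dusp2 band at most 18.2% in liver and at least 28.2% in spleen.

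Of the 9 tested atypical dual-specificity genes, which lack the MAP kinase-binding domain, 1 was higher in liver and 8 did not pass. The share called was 11.1%, against 16.2% of all tested genes. Dusp18 was at 4.81, 4.03 and 4.82 CPM in liver and at 0.861, 0.343 and 1.28 CPM in spleen. It rested on 1, 4 and 15 counts in spleen against 40, 44 and 52 in liver. The groups did not overlap (2.46 ± 0.55, edgeR adjusted p = 0.00414), and the call was lost without spleen 2 (1.90, edgeR adjusted p = 0.0522). Dusp23 was also above the spleen range in every liver library, at 5.89, 6.33 and 5.56 CPM against 1.72, 2.57 and 3.85 CPM, without passing (edgeR adjusted p = 0.0945). Dusp11, an RNA phosphatase despite its name and the most abundant atypical member, lay between 258 and 289 CPM in liver, with spleen between 244 and 301 CPM (edgeR adjusted p = 0.717). Dusp22, an inhibitor of Lck in T cells, lay between 6.67 and 7.79 CPM in liver and between 2.58 and 11.6 CPM in spleen (edgeR adjusted p = 0.425).

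Genes that work with the phosphatases were read from the same fit. Over all tested genes 16.2% were called, 9.28% toward liver and 6.90% toward spleen. By list, in the order given below, the share called was 28.0%, 31.6%, 33.3%, 36.4%, 20.0% and 20.5%. Of 25 T cell receptor kinases and adaptors, 6 were higher in spleen, 1 higher in liver and 18 did not pass (median log2 fold change -0.18). Lck, the kinase that CD45 and SHP-1 act on, averaged 613 ± 15.7 CPM in the liver libraries and 774 ± 20.1 CPM in those of spleen (SD, n = 3 each). Its log2 fold change was -0.33 ± 0.09 (edgeR adjusted p = 0.0142). The adaptor gene Lat (-0.50 ± 0.10) was higher in spleen as well. Ubash3b, a phosphatase of another superfamily that restrains T cell receptor signals, was the gene of this list higher in liver, with 215 ± 15.6 CPM there and 140 ± 16.8 CPM in spleen libraries (0.65 ± 0.10, edgeR adjusted p = 0.000209). Without liver 1, liver 2 or spleen 2 the number of these genes higher in spleen was 2, and with limma-voom it was 10.

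Of 38 tested genes of the MAP kinase cascade, 4 were higher in liver and 8 in spleen, while 26 did not pass (median 0.03). Map2k3, an activator of p38, was higher in liver (0.74 ± 0.13). Map3k8 (-0.75 ± 0.15), the RAS activator gene Rasgrp4 (-0.79 ± 0.16) and the p38 gene Mapk11 (-0.58 ± 0.12) were higher in spleen. Leaving out liver 1, liver 2, spleen 2 or spleen 3 left 2 higher in liver. The number higher in spleen was 4 without liver 1 or spleen 2, and 5 without liver 2, liver 3 or spleen 3. At equal depth 0 were higher in liver and 3 in spleen. Of 15 tested genes in a list of feedback and other inhibitors of RAS and ERK, 5 were higher in spleen, 0 higher in liver and 10 did not pass (median -0.33). They were Rasa2 (-0.62 ± 0.12), Spred1 (-1.48 ± 0.31), Rasal3 (-0.38 ± 0.09), Rasa1 (-0.39 ± 0.09) and Spry1 (-0.55 ± 0.15).

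Of 22 tested genes in the list of immediate early genes downstream of ERK, 6 were higher in spleen, 2 higher in liver and 14 did not pass (median -0.13). Elk1, Elk3 and Elk4, which regulate such genes and are also in the list, did not pass. Egr2 (-2.51 ± 0.18), Egr3 (-1.94 ± 0.19), Egr1 (-1.27 ± 0.11) and Myc (-0.99 ± 0.11) were higher in spleen, the direction of Dusp2 and Dusp6. Junb (0.45 ± 0.10) and Jund (0.48 ± 0.12) were the genes higher in liver, the direction of Dusp5 and Dusp1. Srf, whose protein binds the CArG box, was also higher in spleen (-0.38 ± 0.10, edgeR adjusted p = 0.0117). Any called gene shares a direction with some of these MKP genes, and a link between them was not tested. Leaving out liver 1 or spleen 2 left 1 higher in liver. Of 15 JAK and STAT genes, 2 were higher in liver, among them Stat5b (0.28 ± 0.09), and 1 higher in spleen, the cytokine feedback inhibitor Socs1 (-0.82 ± 0.14). The number higher in liver was 0 without spleen 2 and 1 without spleen 3 or any 1 liver library. Without liver 3, 2 were higher in spleen.

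Phosphatase superfamily genes outside the symbol pattern were also read. Of 39 tested, 5 were higher in liver and 3 in spleen, while 31 did not pass (median 0.06). The list includes Ptpla, Ptplb, Ptplad1 and Ptplad2, which carry the name but belong to lipid enzymes. Cdc25b, a dual-specificity phosphatase that activates cyclin-dependent kinases at mitotic entry, averaged 549 ± 71.8 CPM in the liver libraries and 228 ± 12.8 CPM in those of spleen (1.26 ± 0.11, edgeR adjusted p = 3.22e-07). Ptplad1 was higher in liver too (0.60 ± 0.11). Tns1 (-0.84 ± 0.13), a tensin, and Ptp4a3 (-0.56 ± 0.10), which encodes the phosphatase PRL-3, were higher in spleen. Leaving out spleen 3 left 3 higher in liver, and equal depth left 2. All 15 G2 phase and mitosis markers read were higher in liver too. Their summed level was between 2278 and 2488 CPM in liver and between 818 and 967 CPM in spleen. Of 15 S phase markers 8 were higher in liver and 7 did not pass. Their sums were 1685 to 1830 CPM in liver and 1264 to 1527 CPM in spleen. The part of cell division in the Cdc25b and phosphatase results was not tested.

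**Figure D5:**
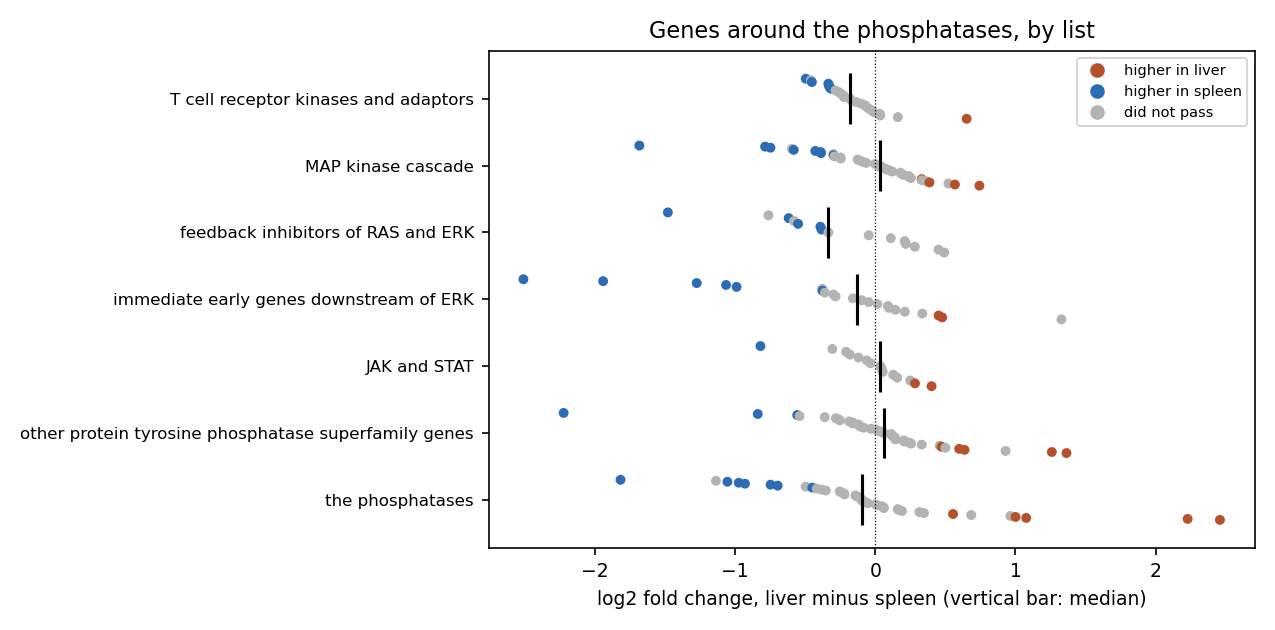
Log2 fold change (liver minus spleen) of each tested gene in 6 lists of signalling partners and in the phosphatases; the black bar is the list median, and color marks genes past the test. The list of feedback and other inhibitors of RAS and ERK has its median at -0.33 and the phosphatases at -0.10.

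Markers of other cells moved between the tissues as well, and their part in the phosphatase results was not tested. Of 13 tested B and plasma cell markers 6 were higher in spleen, with summed levels of 159 to 190 CPM in liver and 244 to 366 CPM in spleen. Of 16 tested granulocyte markers 13 were higher in spleen and 1 higher in liver (315 to 353 against 540 to 913 CPM). Of 12 tested erythroid markers 11 were higher in spleen (116 to 140 against 383 to 477 CPM). Of 13 tested macrophage and monocyte markers 9 were higher in spleen and 1, Ccr2, higher in liver. The macrophage sums overlapped (238 to 244 against 168 to 263 CPM), with Ccr2 alone at 152 to 158 CPM in liver and 31.0 to 55.4 CPM in spleen. Without Ccr2 they did not overlap, at 80.8 to 90.3 CPM in liver and 134 to 208 CPM in spleen. Mrc1 and Spic had no count in liver, and Vsig4 none in either tissue. B cells and myeloid cells are known to express Ptpn6. Of 10 tested NK, innate lymphoid and CD8 T cell markers 5 were higher in liver and 1 in spleen (112 to 139 against 49.3 to 65.4 CPM). Of 4 tested hepatocyte markers 2 were higher in liver and 1 in spleen, and the summed levels overlapped (16.0 to 27.3 against 18.2 to 25.0 CPM). Trf, the marker higher in spleen, averaged 17.2 CPM of the mean sum of 20.7 CPM there, and 9.97 of 23.6 CPM in liver. Alb and Ahsg had counts in liver, at no more than 7.32 CPM, and none in spleen. Of the filtered markers, Ttr, Hnf4a, Apob, Fga, Fgb, Rbp4, Serpina1a and Serpina1b also had counts in liver only, at no more than 1.76 CPM. Apoa1 and Apoa2 had counts in both tissues.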

How the data were processed

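RNA sequencing of sorted Treg cells gave 3 liver and 3 spleen libraries. The authors deposited raw read counts per gene symbol. The submitters' processing notes name HISAT2 2.1, HTSeq 0.11 and mm9. Annotation and strand setting are not given in those notes, so reads of overlapping or antisense neighbours may be mixed. The 5 summary rows, 25.5% to 29.0% of a library's counts, were left out. All pairs of libraries differed by more than counting noise (chi-square over its degrees of freedom 4.56 or more).

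The counts went through edgeR 4.0.16 (R 4.3.3): filterByExpr, TMM scaling and the quasi-likelihood F test of liver minus spleen over all tested genes. An adjusted p (Benjamini-Hochberg) under 0.05 was called. SEs follow from the F statistic. CPM use the TMM-scaled library size. Exon lengths came from GENCODE M21 and promoters from RefSeq GRCm38.p6, matched by symbol for 62 and 50 members. The members and lists were chosen with earlier results of these data known. The rule for named genes takes every member past the threshold, the 3 most abundant per family by level per kb, and the 4 smallest p of each pathway list. Further members and genes, among them Srf, Rasa1, Spry1, Stat5b, Fos, Junb and Jund, were named after their values were seen. Some genes that the rule takes are not reported here.

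Scripts were tested on simulated data. Alternatives were DESeq2 size factors, upper-quartile scaling, the DESeq2 1.42.0 Wald test, limma 3.58.1 voom with sample quality weights, 2 other filters, thinning to equal depth, and leaving out each library.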

Additional observations from a re-analysis of the deposited data

How the results depend on the processing

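No called direction reversed under any alternative. Of the members' fold changes under the 13 alternatives, as far as each alternative tested them, 513 kept their side of the threshold, 14 lost it and 4 gained it. Dusp1, Dusp2, Dusp5, Dusp6, Ptpn1, Ptpn6 and Ptprj kept their calls under all 13. With 5 members higher in liver, the count was 8 with limma-voom, where Dusp23, Ptpn4 and Ptpra passed, 3 with at least 5 CPM in at least 3 libraries, which removes Dusp9 and Dusp18, and 3 at equal depth. It was 3 to 5 with a library left out, and 3 without spleen 2. With 7 higher in spleen, the count was 11 without a filter and 4 at equal depth, and 5 to 7 with a library left out. Over all genes the counts were 596 and 419 at equal depth, where fewer genes were tested, and 1243 were higher in spleen with limma-voom. With a library left out, 722 to 1245 were higher in liver and 486 to 989 higher in spleen. Of the pathway genes 14 were higher in liver, 6 at equal depth and 9 to 15 with a library left out, with 9 without liver 1. Upper-quartile scaling and DESeq2 size factors left the member counts at 5 and 7. No paired analysis was possible because the labels give the libraries no shared replicate numbers. Depth limits the low members: 3 counts are 2.58 CPM in spleen 1, above the spleen mean of Dusp9 and Dusp18.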

Other observations

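Among the 10 members with counts that the filter removed, several receptor phosphatases of endothelial and epithelial adhesion had counts in spleen and few or none in liver. Ptprm had 1, 4 and 13 counts in spleen 1, 2 and 3 and 0 in each liver library. Ptprb, the endothelial receptor phosphatase, had 0, 5 and 24 counts in spleen and 0, 2 and 0 in liver. Ptprk had 0, 8 and 4 counts in spleen and 0 in each liver library, and the JNK phosphatase gene Dusp8 had 1, 1 and 10 against 0 in each. In edgeR with no filter on low counts these 4 genes were called higher in spleen (adjusted p = 0.0120, 0.0242, 0.0448 and 0.0356). Each rests on 12 to 31 counts over all libraries, and the share of all genes called in that fit is not reported here. The other filtered members with counts were not called in it (edgeR adjusted p = 0.234 or more). The DESeq2 Wald test called Ptprm (adjusted p = 0.0361) but not Ptprb or Dusp8 (adjusted p = 0.152 and 0.107), and gave no adjusted p for Ptprk. Of 12 endothelial and stromal markers 6 were tested, and 2 were higher in spleen: Stab2, at 6.89 to 16.6 CPM against at most 0.842 CPM in liver, and Eng, at 6.26 to 8.61 CPM against at most 1.20 CPM. The other tested markers, Pecam1, Col1a2, Col1a1 and Cdh5, overlapped between tissues and did not pass (edgeR adjusted p = 0.228, 0.281, 0.715 and 0.980). Cdh5 lay between 0.556 and 2.20 CPM in liver and between 0.857 and 1.72 CPM in spleen. Of the filtered markers, Kdr was at 0.861, 2.06 and 1.62 CPM in spleen and at 0.120, 0 and 0 CPM in liver. Tek was at 0.0857 to 0.861 CPM in spleen and at most 0.0917 CPM in liver. Lyve1 and Dcn had no count in any library. The summed list lay at 189 to 230 CPM in liver and above that in spleen, at 252 to 275 CPM, most of it Pecam1. Its part in these counts was not tested.

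The other 6 filtered members had few counts. Ptpro, a phosphatase of podocytes and macrophages, had 30 counts over the 6 libraries, with 17 in liver and 13 in spleen. Ptprr had 8 and 3 counts in liver 2 and liver 3 and 1 in spleen 3. Ptpru had 1 and 2 counts in liver 2 and liver 3 and 3 and 4 in spleen 2 and spleen 3. Dusp27 had 6 counts in liver 3, Ptprh 3 in liver 1 and Ptprg 1 in spleen 1, each with 0 in every other library. The members with no count in any library were Dusp13, Dusp15, Dusp21, Dusp26, Ptpn20, Ptprd, Ptprn2, Ptprq, Ptprt and Ptprz1.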
